A study of Mus musculus with 10 samples.

Results

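Adiponectin, a hormone secreted by fat cells, was compared with vehicle in mouse bone marrow cultures at 72 and 120 h, the stage at which marrow precursors fuse into osteoclasts, the cells that resorb bone. The arrays were chosen by their labelled time: 4 of the 10 arrays of the series, 1 adiponectin and 1 control culture at 72 h and the same at 120 h. All 19938 genes with a symbol of their own are described, each by 1 probe set. Both groups held marrow from the long bones of male Swiss mice 4 to 6 weeks old, grown in αMEM with 10% serum and calcitriol (active vitamin D) at 1e-08 M. The adiponectin group also received recombinant mouse adiponectin at 5 microgram per ml, and the control group received vehicle. The other 6 arrays, of the same 2 treatments at 4, 10 and 24 h, serve here only to estimate the spread and for comparison. The title of the series speaks of lipopolysaccharide, the endotoxin of Gram-negative bacteria, as a contaminant, and the labels name no lipopolysaccharide treatment.

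Osteoclasts form from cells of the monocyte and macrophage line under the cytokines M-CSF and RANKL, which the stromal cells of marrow supply when calcitriol is present. RANKL signals through its receptor RANK to the transcription factor NFATc1, which turns on genes for cell fusion, acid secretion and matrix digestion. Lipopolysaccharide acts through the receptor TLR4 on macrophages, where it activates NF-kB and, through secreted type I interferon, a large set of antiviral genes. Adiponectin itself acts through the receptors Adipor1 and Adipor2 and binds the surface protein T-cadherin, encoded by Cdh13.

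The values are log2 levels from a whole-transcript array that the authors normalized, so a difference of 1 is a 2-fold difference. No label tells if the marrow at each time was taken from different mice. A p-value here reflects how far the adiponectin difference varied between the times within a stage, in these 10 cultures. That spread may be technical, and it also counts a change of the effect with time as error. The medians of the 4 late arrays lay between 8.43 and 8.45. The labelled stage was checked against 8 osteoclast markers: all 8 were higher in the control at 72 h than at 4 h. Oscar, an immune-type receptor that costimulates osteoclast formation, was higher by 3.98, Ctsk, the collagen-digesting cathepsin K, by 3.49 and Ocstamp, needed for cell fusion, by 3.38. These cultures were mixed: macrophage markers averaged 13.15 and 13.26 (control and adiponectin) at 72 h, neutrophil markers 11.99 and 11.83, and collagen-making stromal markers 11.49 and 11.77. In RNA of such a mixture, fewer cells of a type and less RNA per cell cannot be told apart.

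Among genes past the adjusted threshold or a 2-fold difference, far more were higher than lower with adiponectin at the late times. By direction alone, 5526 genes (27.7%) were higher and 7419 (37.2%) lower at both late times. In limma's moderated test, paired by time, 172 genes rose (0.863% of those tested) and 16 fell (0.0802%) at an adjusted p under 0.05. Before adjustment, p was under 0.05 for 853 genes higher (4.28%) and 711 lower (3.57%). Of the 172, 108 rose 2-fold or more, 33 of them 4-fold or more, and 167 were higher in both adiponectin arrays than in either control array. Over all genes, 3452 (17.3%) had both adiponectin arrays above both controls and 5254 (26.4%) had both below. Without a test, 109 genes (0.547%) were at least 2-fold higher at 72 h and 150 (0.752%) at 120 h, 99 (0.497%) at both. At least 2-fold lower were 31 genes (0.155%) at 72 h, 6 (0.0301%) at 120 h and 4 (0.0201%) at both. Of the 16 that fell, 3 did so at least 2-fold and 14 did not overlap between the groups. The rises were usually wider at 120 h: 141 of the 172 differed more at 120 h than at 72 h, with medians of 1.26 and 1.03. Of the 16 falls, 5 were larger at 120 h. Over all 19938 genes, adiponectin minus control was higher at 120 h than at 72 h in 9365. The control level of 148 of the 172 was lower at 120 h than at 72 h, with a median change of -0.37, and the adiponectin level of 123 was lower, with a median change of -0.16.

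The counts rest on both pairs. Without the 72 h pair 55 genes rose and 1 fell, without the 120 h pair 16 rose and 1 fell, and without the pairing by time 50 rose and 3 fell. The 16 that rose without the 120 h pair also rose without the 72 h pair: Saa3, Ccl5, Ifi205, Ms4a4c, Acod1, Slfn4, Slfn1, Gzmd, Marco, Gbp4, Ifi214, Ifit2, Usp18, Rsad2, Oasl1 and Gbp3. With p-values adjusted over every probe set, named or not, 6 genes rose and none fell: Saa3, Ccl5, Gbp3, Ifi214, Rsad2 and Usp18. At an unadjusted p under 0.05 that fit gave 684 higher and 471 lower.

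**Figure D1:**
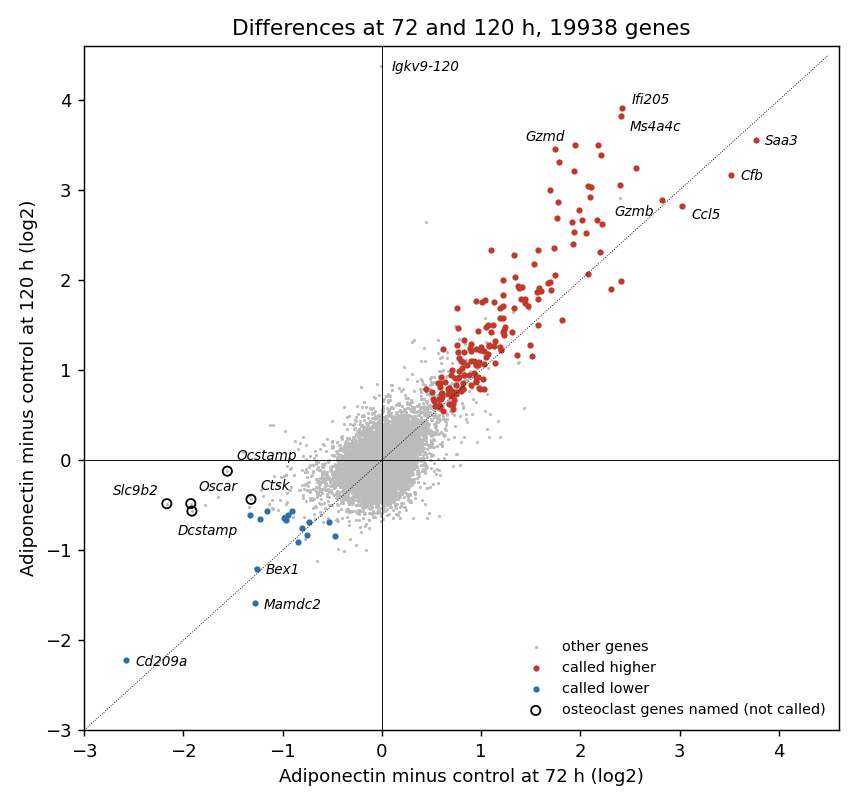
Difference between adiponectin and control (log2) at 72 h on the horizontal axis and at 120 h on the vertical axis, with 1 point for each of 19938 genes and a dotted line of equal difference. The 172 genes that rose (red) lie mostly above the line, and the circled osteoclast genes, which did not pass the test, lie between -0.12 and -0.57 at 120 h and between -1.32 and -2.17 at 72 h.

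Antiviral genes that type I interferon turns on rose. All 33 measured genes of the interferon list rose (background 0.863%), with a median late effect of 1.59 against -0.03 over all genes. The median was 1.41 at 72 h and 1.83 at 120 h. Without the 120 h pair 5 of the 33 rose and without the 72 h pair 21 did. With p-values adjusted over every probe set 3 rose, and in an ordinary test without moderation none passed an adjusted p under 0.05.

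Ifit2, which blocks translation of viral RNA, was at 9.52 in the control and 11.72 with adiponectin at 72 h, and at 7.99 and 11.37 at 120 h. Both adiponectin cultures lay above both controls, and the rise was 2.80 ± 0.60 (here and below, the half-width of the 95% confidence interval from the fit, n = 2 pairs; limma adjusted p = 0.00199). Rsad2, the antiviral enzyme viperin, was at 9.24 and 11.40 at 72 h and at 8.22 and 10.88 at 120 h. It rose by 2.41 ± 0.31 with no overlap (limma adjusted p = 0.000228). Usp18, which removes the ubiquitin-like ISG15 and damps interferon signalling, was at 10.21 and 12.43 at 72 h and at 9.60 and 12.22 at 120 h, a rise of 2.42 ± 0.28 (limma adjusted p = 0.000132). In each of these genes the control culture was lower at 120 h than at 72 h, and so the gap was wider at 120 h.

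Sensors, regulators and effectors of the pathway were all among those that rose. Irf7, the factor that amplifies interferon production, was at 12.32 and 13.65 at 72 h and at 11.28 and 13.57 at 120 h, a rise of 1.81 ± 0.53. Ifih1, the double-stranded RNA sensor MDA5, rose by 1.65 ± 0.32, Stat2 by 1.51 ± 0.31 and Irf9, its partner in the factor that binds the interferon element, by 0.69 ± 0.23. Mx1 and Mx2, antiviral GTPases, rose by 2.38 ± 0.48 and 1.75 ± 0.33. Ifnb1, which encodes interferon beta, differed by -0.10 ± 0.27 and Ifng, which encodes interferon gamma, by 0.16 ± 0.30, and neither passed the test.

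Some of the genes that changed lie near others of their family. Of the 188 genes that changed, 43 fell into 11 runs of at least 3, with at most 5 measured genes between neighbours in the RefSeq gene order. How many runs 188 genes drawn from all those measured would form was not worked out, so the count has no background beside it. Runs on chromosomes 1 and 11 held 6 each: Ifi214, Ifi209, Ifi208, Ifi203, Ifi202b and Ifi205, DNA-binding proteins of the p200 family, and Slfn5, Slfn8, Slfn10-ps, Slfn1, Slfn4 and Slfn3 of the Schlafen family. Ifi205 was at 8.47 and 10.89 at 72 h and at 6.59 and 10.50 at 120 h, a rise of 3.17 ± 0.66 (limma adjusted p = 0.00191). Chromosome 19 held Ifit2, Ifit3, Ifit3b and Ifit1, and chromosome 5 held Oas2, Oas3, Oas1b and Oas1a, which make the messenger that activates RNase L. Members of these families are close copies, so a probe set may read several of them, and the share of each is uncertain.

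The promoters were searched for 3 motifs on both strands, in the 250 bases before and 50 after each start given by RefSeq (GRCm38.p6), since the genes that rose moved together. The core of the interferon response element, GAAA, any 2 bases and GAAA again (TTTC, any 2 bases and TTTC on the other strand), was in 36 of the 134 genes that rose and have a promoter there (26.9%). It was in 1 of 14 that fell (7.14%) and in 607 of 15614 genes overall (3.89%). The AP-1 motif TGANTCA, which reads the same on both strands, was in 24 of the 134 (17.9%), 1 of the 14 (7.14%) and 1262 overall (8.08%). The NF-kB motif, GGGA, any base and TTTCC, was in 2 of the 134 (1.49%), none of the 14 and 80 overall (0.512%). These counts describe letters in a window, not binding.

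The 250 bases before the start of 4 genes that hold the interferon core are given below, with motif matches in capitals. Saa3 and Ifi205 are among the 3 genes with the largest rises, and Rsad2 and Ifit1 were added after their values were seen, as well-known interferon targets. They lie at chr7:46715677-46715926 (Saa3, minus strand), chr1:174031756-174032005 (Ifi205, minus), chr12:26456453-26456702 (Rsad2, minus) and chr19:34640639-34640888 (Ifit1, plus).
Saa3: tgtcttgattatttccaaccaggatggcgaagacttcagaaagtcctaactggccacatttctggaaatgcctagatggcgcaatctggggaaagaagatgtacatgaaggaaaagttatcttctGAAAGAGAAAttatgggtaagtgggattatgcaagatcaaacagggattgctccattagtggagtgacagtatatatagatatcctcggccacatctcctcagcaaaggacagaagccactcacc
Ifi205: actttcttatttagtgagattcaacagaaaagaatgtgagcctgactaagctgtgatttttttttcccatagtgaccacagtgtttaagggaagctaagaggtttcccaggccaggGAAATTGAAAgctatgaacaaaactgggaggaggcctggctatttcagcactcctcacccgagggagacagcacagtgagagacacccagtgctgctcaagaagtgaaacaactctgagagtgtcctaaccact
Rsad2: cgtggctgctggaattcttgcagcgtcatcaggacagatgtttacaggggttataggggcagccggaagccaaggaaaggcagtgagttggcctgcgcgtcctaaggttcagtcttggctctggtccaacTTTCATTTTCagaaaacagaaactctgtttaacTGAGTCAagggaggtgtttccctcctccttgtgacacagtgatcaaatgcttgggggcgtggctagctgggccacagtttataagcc
Ifit1: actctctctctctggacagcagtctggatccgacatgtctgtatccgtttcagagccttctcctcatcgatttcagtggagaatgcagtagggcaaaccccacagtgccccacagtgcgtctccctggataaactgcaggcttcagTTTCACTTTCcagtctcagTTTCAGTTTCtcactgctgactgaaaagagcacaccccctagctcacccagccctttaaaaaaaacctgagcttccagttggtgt
Within these 250 bases Ifit1 holds the core in 2 places, Saa3 and Ifi205 in 1 each, and Rsad2 holds 1 core and 1 AP-1 match. Ifi205 has another core 24 bases past its start, outside the stretch printed.

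Acute-phase and complement genes gave the largest rises of single genes, although most of that list did not pass. Saa3, a serum amyloid made by macrophages in inflammation, was at 9.13 in the control and 12.90 with adiponectin at 72 h, and at 8.03 and 11.58 at 120 h. It rose 12.7-fold (3.66 ± 0.28, limma adjusted p = 1.02e-05) with no overlap. Cfb, factor B of the alternative complement pathway, was at 9.32 and 12.83 at 72 h and at 9.23 and 12.40 at 120 h. It rose 10.2-fold (3.34 ± 0.82, limma adjusted p = 0.00407). These were 2 of 17 measured genes of the list (background 0.863%), whose median was 0.15. At both times 12 of the 17 were higher and none lower (27.7% and 37.2% of all genes were). At an unadjusted p under 0.05 in limma, 6 were higher and none lower (4.28% and 3.57% of all genes were). C2 differed by 0.98 ± 0.44 (limma adjusted p = 0.0704).

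Some genes that lipopolysaccharide is known to induce in macrophages rose late, and others did not pass. Of 19 measured, 4 rose and none fell (background 0.863% and 0.0802%), with a median of 0.40. At both times 16 were higher and 1 lower (27.7% and 37.2% of all genes were). At an unadjusted p under 0.05 in limma, 11 were higher and none lower (4.28% and 3.57% of all genes were). Acod1, which makes the antimicrobial metabolite itaconate, was at 9.23 and 11.78 at 72 h and at 7.99 and 11.22 at 120 h, a rise of 2.90 ± 0.51 (limma adjusted p = 0.00118). Marco, a scavenger receptor for bacteria, was at 8.45 and 10.85 at 72 h and at 8.30 and 10.29 at 120 h, a rise of 2.20 ± 0.36. Slfn4 rose by 2.84 ± 0.64, and Irak3, an inhibitor of Toll-like receptor signalling, by 0.81 ± 0.22. Ptgs2, the prostaglandin-forming enzyme COX-2, differed by 0.80 ± 0.38 (adjusted p = 0.0889).

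Of the inflammatory cytokines, none of 19 passed limma's test, and their median was 0.15. At an unadjusted p under 0.05, 6 were higher (4.28% of all genes were). Without the 4 h pair 4 of the 19 rose, and a fit to the 4 late arrays alone called 5 higher. Tnf was at 9.89 and 10.39 at 72 h and at 9.71 and 10.56 at 120 h, a difference of 0.68 ± 0.63 (limma adjusted p = 0.587). Il1b differed by 0.99 ± 0.52 (adjusted p = 0.125), Il6 by 0.80 ± 0.59 (0.392) and Il10, which restrains macrophages, by 0.97 ± 0.53 (0.145). Il12b and Nos2 differed by 0.23 and 0.34. Each of Tnf, Il1b, Il6 and Il10 was higher with adiponectin at both times, as were 9 of the 19 cytokines against 27.7% of all genes.

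Of 23 measured chemokines 3 rose (background 0.863%), with a median of 0.40 for the list. At both times 16 were higher and 3 lower (27.7% and 37.2% of all genes were). At an unadjusted p under 0.05 in limma, 12 were higher and 2 lower (4.28% and 3.57% of all genes were). Ccl5, a chemokine that attracts T cells, was at 10.45 and 13.47 at 72 h and at 9.24 and 12.06 at 120 h, a rise of 2.92 ± 0.27 (limma adjusted p = 3.16e-05). Cxcl9 and Cxcl10, which bind CXCR3 on activated T and NK cells, rose by 2.57 ± 0.89 and 2.04 ± 0.82. Cxcl11, which binds the same receptor, differed by 0.12 and did not pass, nor did Ccl22 (0.45) and Cxcl13 (-0.05), which also attract lymphocytes. Without the 72 h pair or without the 120 h pair 1 of the 23 rose. Ccl8 was at 7.05 and 9.45 at 72 h and at 7.83 and 10.74 at 120 h, a difference of 2.65 ± 1.11 that just missed the threshold (adjusted p = 0.0504). Cxcl2, a neutrophil attractant, differed by 0.70 ± 0.77 and Ccl2, a monocyte attractant, by 0.36.

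Of 21 genes of the Toll-like receptor pathway, upstream of these genes, 3 rose (background 0.863%), Tlr9 by 1.10 ± 0.30, Tlr3 by 0.95 ± 0.33 and Irak3 as above. None of the 3 rose without the 72 h pair or without the 120 h pair. At both times 14 of the 21 were higher and 2 lower (27.7% and 37.2% of all genes were). At an unadjusted p under 0.05 in limma, 8 were higher and none lower (4.28% and 3.57% of all genes were). Tlr4, the receptor for lipopolysaccharide, was at 9.76 and 10.05 at 72 h and at 9.91 and 10.17 at 120 h, a difference of 0.27 ± 0.34 that did not pass. Its partners Ly96 and Cd14 differed by -0.01 and 0.61. Of 20 NF-kB genes only Ikbke, a kinase that activates interferon factors, rose (0.64 ± 0.23, background 0.863%), and the list's median was 0.12. Of the 20, 14 were higher and 1 lower at both times, and 3 were higher and none lower at an unadjusted p under 0.05 in limma. Mir146, whose product restrains Toll-like receptor signalling, rose by 0.89 ± 0.25 (limma adjusted p = 0.00698) and was singled out after its values were seen. Its probe set reads the gene and not the mature forms, which are printed to show the seeds (bases 2 to 8, capitals) by which they pair with targets.
miR-146a-5p: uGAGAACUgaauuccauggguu
miR-146a-3p: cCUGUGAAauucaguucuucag
The first is at chr11:43374435-43374456 and the other at chr11:43374399-43374420, both on the minus strand of GRCm38.p6 in RefSeq, and their seeds differ.

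**Figure D2:**
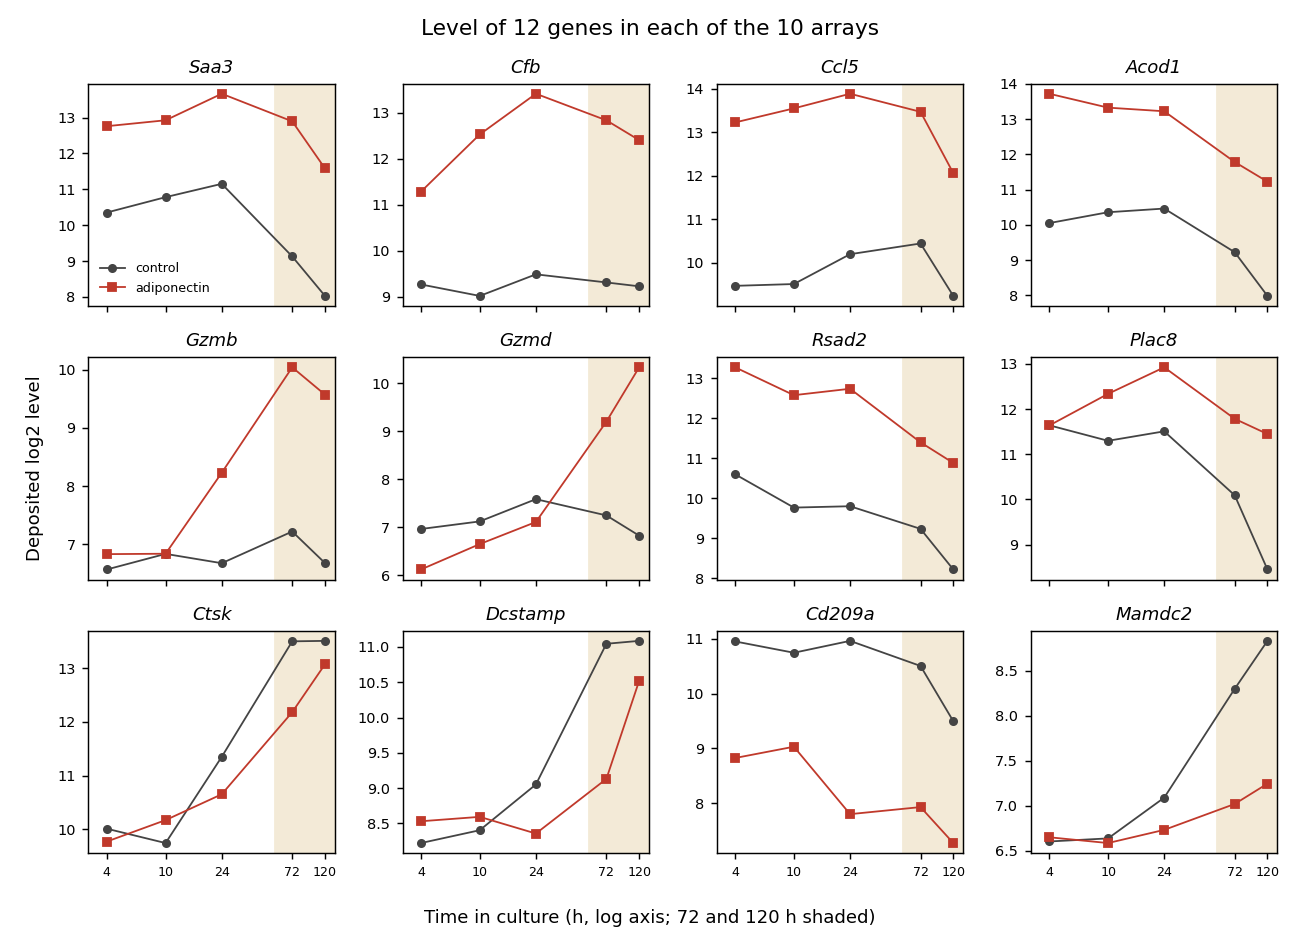
Deposited log2 level of 12 genes (vertical axes) against time in hours on a log axis, with 1 control (grey circles) and 1 adiponectin (red squares) array at each time and the late times shaded. Gzmd is higher with adiponectin at 72 and 120 h only, Gzmb also by 1.55 at 24 h, Saa3, Ccl5 and Acod1 are apart at all 5 times, and Ctsk and Dcstamp are lower with adiponectin at 72 h and nearer the control at 120 h.

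Of 18 measured genes of natural killer and cytotoxic cells, 8 rose and none fell (background 0.863% and 0.0802%). At both times 14 were higher (27.7% of all genes were), and the median was 0.81. Without the 120 h pair 2 rose, and without the 72 h pair 4 did. With genes under the 25th percentile of mean level left out, 12 of the 18 remained and 7 of them rose. With p-values adjusted over every probe set only Ccl5 rose. Ccl5 also counts among the chemokines.

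Gzmb, the protease granzyme B that kills target cells, was at 7.22 in the control and 10.04 with adiponectin at 72 h, and at 6.68 and 9.57 at 120 h. It rose 7.23-fold (2.85 ± 0.68, limma adjusted p = 0.00367). Gzmd was at 7.25 and 9.20 at 72 h and at 6.83 and 10.33 at 120 h, a rise of 2.73 ± 0.66, and Gzmc rose by 2.23 ± 0.55. Gzmd, Gzmg, Gzmc and Gzmb form a run on chromosome 14, and Gzmf, its near copy, was at 6.09 and 6.53 at 72 h and at 6.13 and 8.78 at 120 h without passing (adjusted p = 0.182). In all 4 of the run the adiponectin arrays lay above the controls, but the run holds only genes that rose. Of the 172 that rose, 167 showed this, against 17.3% of all genes. Gzmg and Gzmf were singled out after their values were seen.

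Prf1, the pore-forming perforin, was at 7.73 and 8.71 at 72 h and at 7.90 and 8.69 at 120 h, a rise of 0.89 ± 0.33. Nkg7, a granule membrane protein, was at 8.90 and 10.00 at 72 h and at 7.68 and 10.01 at 120 h, a rise of 1.72 ± 0.57. Il2rb, a receptor chain for IL-2 and IL-15, rose by 1.61 ± 0.56 and Klrk1, the activating receptor NKG2D, by 1.68 ± 0.70. Il15, the cytokine that keeps NK cells alive, was at 9.28 and 10.07 at 72 h and at 9.50 and 10.28 at 120 h, and rose by 0.78 ± 0.28. The NK markers averaged 6.93 (control) and 7.90 (adiponectin) at 72 h and 6.75 and 7.99 at 120 h, with 2 of 4 past the threshold. The defining receptors Ncr1 and Klrb1c differed by 0.40 ± 0.52 and 0.28 ± 0.29 and did not pass, so the number of NK cells and their RNA per cell cannot be told apart here.

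The promoter of Gzmb, 250 bases at chr14:56262335-56262584 on the minus strand (RefSeq, GRCm38.p6), was added after its values were seen as a gene that rose without an interferon core; the capitals mark its AP-1 match.
Gzmb: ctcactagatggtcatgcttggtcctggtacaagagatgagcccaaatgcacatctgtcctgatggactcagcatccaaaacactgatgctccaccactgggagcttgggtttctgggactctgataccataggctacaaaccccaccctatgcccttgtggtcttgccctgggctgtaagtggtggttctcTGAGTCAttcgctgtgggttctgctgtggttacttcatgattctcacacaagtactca

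Lymphocyte and antibody genes moved singly. Jchain, which joins antibody molecules in plasma cells, was at 6.45 and 8.02 at 72 h and at 6.18 and 7.68 at 120 h, a rise of 1.53 ± 0.33 (limma adjusted p = 0.00199). It is a dim gene, with a mean of 6.70 over the arrays. With genes under the 25th percentile of mean level left out, 7 of 9 plasma cell genes remained and none rose. The antibody gene Igkv10-96 rose by 1.33 ± 0.36, whereas Igkv9-120 was at 9.06 and 9.05 at 72 h and at 7.13 and 11.51 at 120 h. That gap of 4.39 between the times came from 1 array per group, and the late effect did not pass (adjusted p = 0.461). Of 17 T cell genes, Cd3g rose by 0.76 ± 0.28, Icos by 0.60 ± 0.23, and Cd28 fell by 0.61 ± 0.25 (background 0.863% rising and 0.0802% falling). Other plasma cell genes differed little: Sdc1 by -0.28 and Ighm by 0.09.

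Monocyte genes rose in part. Of 12 measured 3 rose (background 0.863%), Ms4a4c by 3.11 ± 0.67, Plac8 by 2.34 ± 0.80 and Ms4a6b by 1.27 ± 0.51. Plac8 was at 10.09 and 11.78 at 72 h and at 8.45 and 11.45 at 120 h, so that the adiponectin cultures lay above the controls and the control alone was much lower at 120 h. Ccr2, another monocyte marker, differed by -0.14 ± 0.43 and did not pass. Of 19 macrophage genes 1 rose (background 0.863%), Fcgr1, a high-affinity antibody receptor, by 1.23 ± 0.51, and the median was 0.12. Fcgr4, its relative, rose by 1.38 ± 0.50. Of 6 Fc gamma receptors measured, these 2 rose, 2 were lower at both times, and the median was -0.01. None of the 6 rose without the 72 h pair or without the 120 h pair. Markers of alternative activation (15 genes) and neutrophils (21 genes) had no member past limma's adjusted threshold, with medians of -0.04 in each. At an unadjusted p under 0.05 the first list had 1 higher and 1 lower, and the neutrophil list 5 higher and 6 lower. Over all genes 4.28% were higher and 3.57% lower at that level.

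The genes that fell were few. Cd209a, a lectin of dendritic cells made from monocytes, was at 10.51 in the control and 7.93 with adiponectin at 72 h, and at 9.50 and 7.27 at 120 h. It fell by 2.40 ± 0.64 (5.28-fold, limma adjusted p = 0.00537) with no overlap. Mamdc2, a secreted matrix protein, was at 8.30 and 7.02 at 72 h and at 8.84 and 7.25 at 120 h, and fell by 1.44 ± 0.30 (limma adjusted p = 0.00191). Bex1 was at 6.34 and 5.08 at 72 h and at 6.87 and 5.66 at 120 h, and fell by 1.24 ± 0.33. In all 3 the groups did not overlap, as in 14 of the 16 genes that fell. Over all genes 26.4% had both adiponectin arrays below both controls. Tm4sf19, a tetraspanin-like protein, fell by 0.97 ± 0.40, Steap4, a metalloreductase, by 0.94 ± 0.32, Klra17 by 0.88 ± 0.32, Gpr183, the oxysterol receptor that guides osteoclast precursors to bone, by 0.86 ± 0.36 and Cyp2d11 by 0.82 ± 0.30. The other 8 were Mt3, Dhrs9, Prelp, Aldoc, St8sia6, 2610528A11Rik, Eef1a2 and Cd28, with falls between 0.61 and 0.81. Mamdc2 was the gene that fell without the 72 h pair, and none of the 16 fell without the 120 h pair.

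The 250 bases before the start of Cd209a, the largest fall, hold none of the 3 motifs (chr8:3748985-3749234, minus strand, RefSeq GRCm38.p6).
Cd209a: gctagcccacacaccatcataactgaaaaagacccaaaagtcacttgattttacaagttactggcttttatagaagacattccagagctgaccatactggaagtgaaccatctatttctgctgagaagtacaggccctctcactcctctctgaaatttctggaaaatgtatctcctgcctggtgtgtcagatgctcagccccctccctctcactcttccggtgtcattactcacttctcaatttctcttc
Of 21 measured dendritic cell and class II genes, 12 were lower and 6 higher at both times (37.2% and 27.7% of all genes), with a median of -0.12. Cd209a fell and Bst2, an interferon-induced surface protein also found on plasmacytoid dendritic cells, rose by 1.32 ± 0.51. Neither passed without the 72 h pair or without the 120 h pair. The 4 dendritic markers averaged 9.32 and 8.29 at 72 h and 9.05 and 8.11 at 120 h, and all 4 were lower at both times. Itgax, the integrin CD11c, was at 11.11 and 9.83 at 72 h and at 11.29 and 10.10 at 120 h, a difference of -1.24 ± 0.59 (limma adjusted p = 0.0869). The class II genes H2-Aa, H2-Ab1 and Cd74, which present antigen to T cells, differed by -0.89 ± 0.40, -0.71 ± 0.37 and -0.60 ± 0.31 and did not pass. Higher at both times without passing were Cd86 (0.35), Cd80 (0.20), Ccr7 (0.34), Ccl22 and H2-Oa (0.24).

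Genes of the osteoclast's resorption machinery were lower with adiponectin, mainly at 72 h, but none passed the test. Of 25 measured, 21 were lower at both times and 0 higher at both, against 37.2% of all genes lower at both. None passed limma's adjusted threshold. At an unadjusted p under 0.05, 12 were lower and none higher (3.57% and 4.28% of all genes were). The median late effect was -0.35, made of -0.59 at 72 h and -0.17 at 120 h. In 23 of the 25 the difference was lower at 72 h than at 120 h. All 8 osteoclast markers were lower at both times, with mean differences of -1.32 at 72 h and -0.40 at 120 h from control means of 12.31 and 12.43. Each time had 1 culture per group, so whether the wider gap at 72 h recurs in other cultures was not tested. The test of the late effect counts such a gap between the times as spread.

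Ctsk was at 13.50 in the control and 12.18 with adiponectin at 72 h, and at 13.51 and 13.07 at 120 h. The late difference was -0.88 ± 0.60 (limma adjusted p = 0.319); both adiponectin cultures lay below both controls, by far more at 72 h. Acp5, the acid phosphatase TRAP that is stained to count osteoclasts, differed by -0.48 (adjusted p = 0.207), Mmp9, a gelatinase, by -0.63 ± 0.32 (0.112) and Calcr, the calcitonin receptor, by -0.78 ± 0.36 (0.0722). Atp6v0d2, a subunit of the proton pump that also serves fusion, differed by -0.81 ± 0.51 (0.241). Slc9b2, a sodium and proton exchanger, was at 11.88 and 9.71 at 72 h and at 11.63 and 11.14 at 120 h. Car2, the carbonic anhydrase that supplies the acid, went from 10.70 in the control to 9.60 at 72 h and from 10.64 to 11.04 at 120 h, so its direction differed between the times.

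Fusion genes and costimulatory receptors included some of the widest gaps. Dcstamp, the fusion receptor, was at 11.05 and 9.13 at 72 h and at 11.09 and 10.52 at 120 h (-1.24 ± 0.71, limma adjusted p = 0.175). Oscar was at 12.44 and 10.51 at 72 h and at 12.40 and 11.91 at 120 h (-1.20 ± 0.66, adjusted p = 0.148). Ocstamp was at 11.78 and 10.22 at 72 h and at 11.50 and 11.38 at 120 h, a gap of -1.56 that was -0.12 at 120 h. The adaptors Tyrobp and Fcer1g, through which such receptors signal, lay near the control at both times. Of 16 measured, none passed limma's adjusted threshold. At an unadjusted p under 0.05, 6 were lower and 2 higher (3.57% and 4.28% of all genes were). At both times 9 were lower (37.2% of all genes were), and the median was -0.05.

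A fit to the 4 late arrays alone called 7 of the 25 resorption genes lower (Ctsk, Acp5, Mmp9, Atp6v0d2, Slc4a2, Ckb and Calcr) and 5 of the 16 fusion genes (Dcstamp, Oscar, Siglec15, Cd9 and Cd109). That fit has 1 residual degree of freedom before moderation, and it called 480 genes higher and 184 lower in all. Mmp9 and Ckb also passed with a variance trend and robust prior, and Calcr after a renewed quantile normalization.

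**Figure D3:**
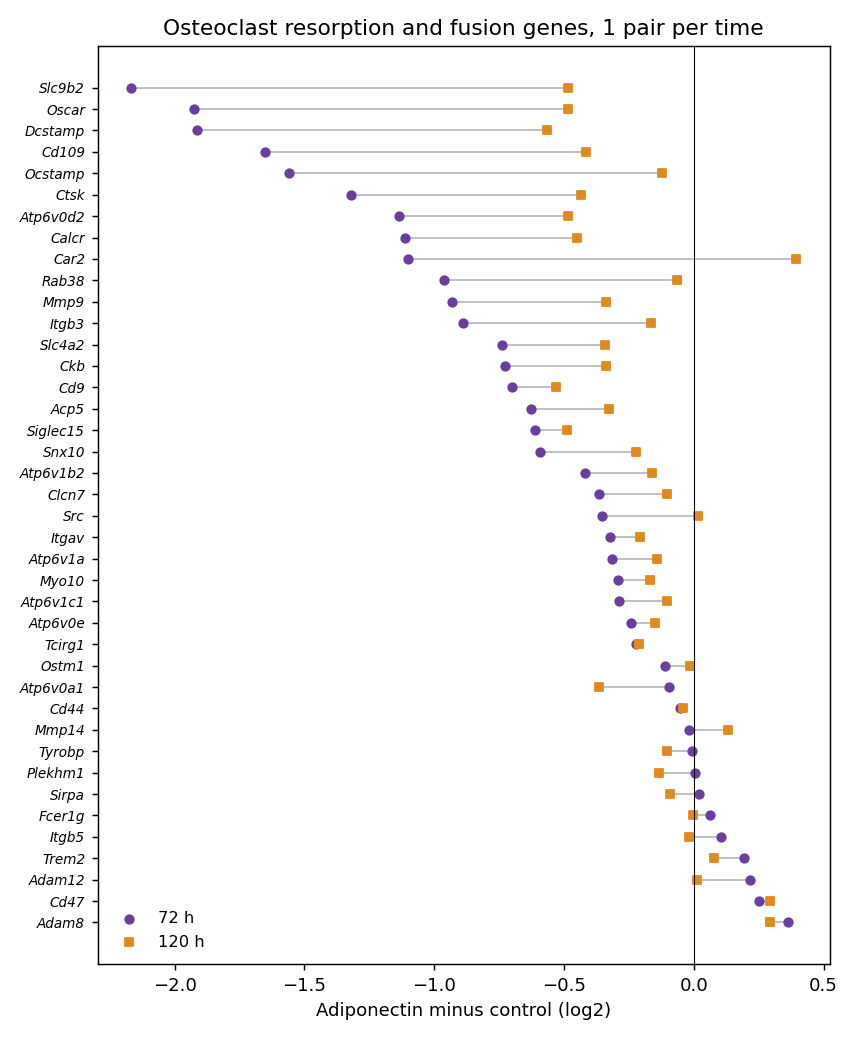
Adiponectin minus control (log2, horizontal axis) at 72 h (purple circles) and 120 h (orange squares) for each measured gene of the resorption and fusion lists (rows). The 72 h differences run from -2.17 (Slc9b2) to 0.36 (Adam8), and the 120 h differences lie between -0.57 and 0.40.

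Among the signals that drive or restrain osteoclast formation, 1 gene passed. Of 16 ligands and decoys measured, 12 were higher and 1 lower at both times (27.7% and 37.2% of all genes were), with a median of 0.22. Il15 rose as given above (background 0.863%). Of the 16, 7 were higher at an unadjusted p under 0.05 (4.28% of all genes were). None passed without the 72 h pair or without the 120 h pair. The list shares several genes with the cytokines, Tnf, Il1b and Il6 among them. Of 22 genes of RANK signalling and osteoclast transcription factors none passed limma's adjusted threshold, and their median was -0.03. At an unadjusted p under 0.05, 3 were lower and 1 higher (3.57% and 4.28% of all genes were). Nfatc1 was at 11.42 and 10.85 at 72 h and at 11.35 and 11.05 at 120 h (-0.43 ± 0.27, limma adjusted p = 0.247), and passed in the fit to the 4 late arrays alone. Tnfrsf11a, which encodes RANK, and Csf1r, the M-CSF receptor, differed by -0.22 and -0.13. Tnfsf11, which encodes RANKL, and Tnfrsf11b, its decoy receptor osteoprotegerin, differed by 0.19 and 0.09. The 15 repressors of osteoclast formation had a median of 0.30, and 11 of them were higher at both times (27.7% of all genes were). None passed limma's adjusted threshold, and 7 were higher at an unadjusted p under 0.05 (4.28% of all genes were). Irf8, which holds precursors in the macrophage state, was at 11.37 and 11.77 at 72 h and at 11.38 and 11.66 at 120 h (0.34 ± 0.28).

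Neither the adiponectin receptors nor the vitamin D genes that were measured passed. Adipor1, Adipor2 and Cdh13 differed by 0.05, 0.01 and -0.38 ± 0.28, and none of the 16 receptor, AMPK and PPAR-alpha genes passed limma's adjusted threshold (median -0.09, 1 lower at an unadjusted p under 0.05). Vdr, the vitamin D receptor, differed by 0.23, and the 11 vitamin D genes had a median of 0.00. At an unadjusted p under 0.05, 2 were higher and 1 lower (4.28% and 3.57% of all genes were). Cyp24a1, Spp1, Bglap and Enpp1 of that list had no probe set under their own symbol alone and are not among the 11. Fat cell genes were measured too, and Adipoq, which encodes adiponectin itself, was at 9.16 and 8.06 at 72 h and at 10.59 and 10.05 at 120 h (-0.82 ± 0.36, limma adjusted p = 0.0659). Adipoq passed as lower without the 10 h pair and in the fit to the 4 late arrays alone. It also passed after a renewed quantile normalization and with arrays centred on their median, and in no other setting.

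**Figure D4:**
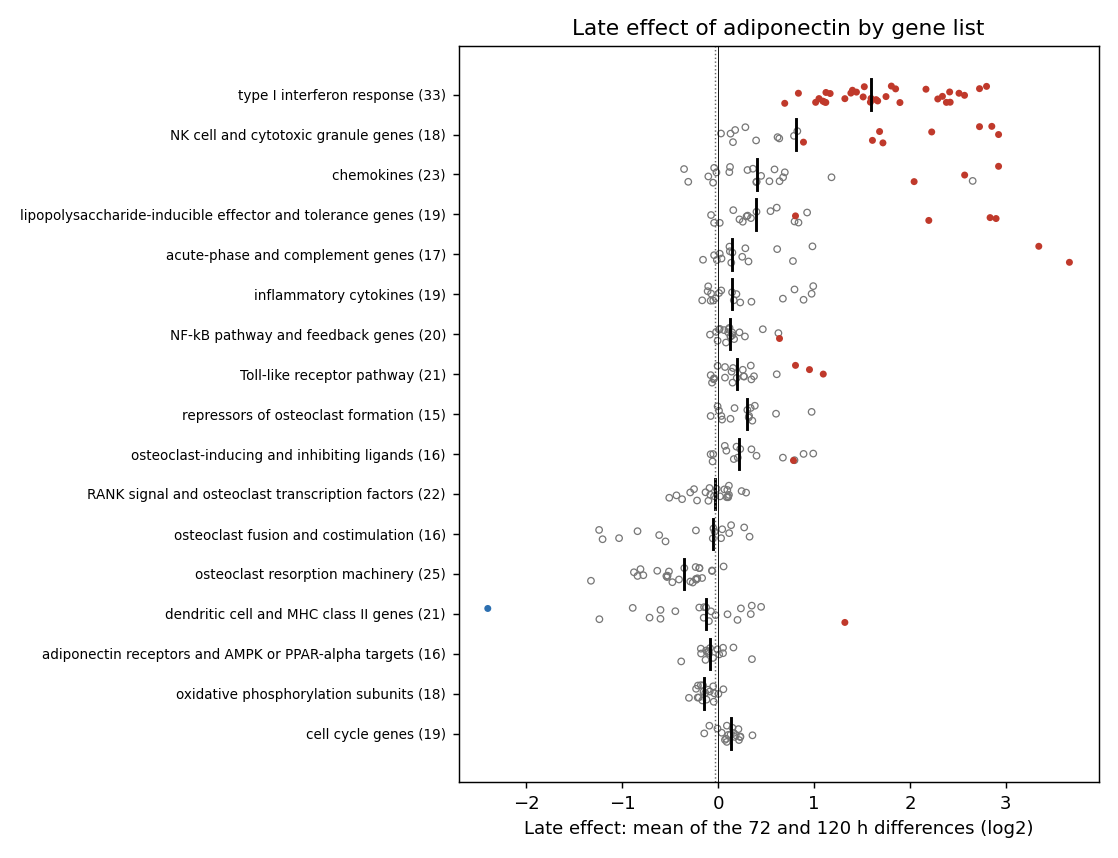
Late effect (mean of the 72 and 120 h differences, log2, horizontal axis) of each measured gene of 17 lists (rows, with the number measured), filled where it passed the test. Black bars are list medians and the dotted line is the median of all genes at -0.03; the interferon median is 1.59 and the resorption median -0.35.

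The late effect was set against the effect at 4, 10 and 24 h, which comes from other arrays in the same fit. At those early times 356 genes rose (1.79%) and 95 fell (0.476%), or 332 and 161 after a renewed quantile normalization and 313 and 173 with arrays centred on their median. Without the 24 h pair 182 rose and 12 fell, and without the 10 h pair 194 fell. Of the 172 late rises 131 also rose early (76.2% of the late and 36.8% of the early rises), and of the 16 late falls 4 also fell early (25% and 4.21%). In the direct test of late minus early no gene passed limma's adjusted threshold. At an unadjusted p under 0.05 that test gave 708 genes higher late (3.55%) and 1975 lower (9.91%), a split that turned to 944 and 853 after a renewed quantile normalization and to 1152 and 913 with centred arrays. Passing at one stage and not the other therefore does not show a difference for any single gene.

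Genes with wide late minus early differences were chosen after their values were seen, and the 4 highest are granule genes of cytotoxic cells. Gzmd was lower than its control at 4, 10 and 24 h (-0.84, -0.47 and -0.47) and higher at 72 and 120 h (1.95 and 3.50), a difference between the stages of 3.32 (unadjusted p = 1.36e-05, limma adjusted p = 0.1365). Nkg7 had a difference of 2.30, Gzmc 2.26 and Gzmb 2.25 (adjusted p = 0.198). Next were Igkv9-120 at 2.11, Gzmf at 1.66, Plac8 at 1.53, Slfn1 and Igkv10-96 at 1.43 each and Jchain at 1.41. The lowest were Gbp5, a GTPase that attacks microbial vacuoles, at -1.72, Ifi206 at -1.50, Irak1bp1 at -1.32, Mamdc2 at -1.31 and, at -1.29 each, the osteoclast exchanger Slc9b2 and Cd40, a costimulatory receptor. Gbp5 was above its control by 3.56, 3.02 and 2.44 at the early times and by 1.07 and 1.50 at the late ones. The cytotoxic list had a median of 0.13 early and 0.81 late, the NF-kB list 0.58 and 0.12, and the interferon list 1.79 and 1.59.

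**Figure D5:**
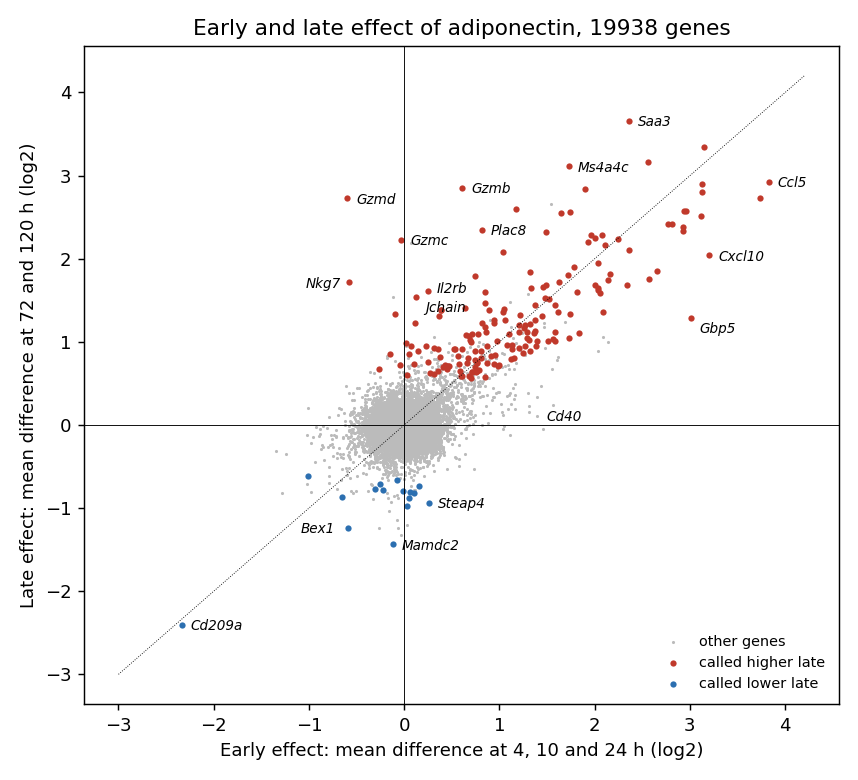
Effect at 4, 10 and 24 h (mean log2 difference, horizontal axis) and at 72 and 120 h (vertical axis) for each of 19938 genes, with a dotted line of equal effect. Genes that rose late (red) include Gzmd, Gzmc and Nkg7, which lie below 0 on the early axis, while Cd40, at 1.40 early and 0.11 late, did not pass late.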

How the data were processed

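RNA from 10 mouse marrow cultures was hybridised to Affymetrix whole-transcript arrays from 100 ng each, per the labels' protocols. The deposited log2 values were used as they were; RMA, Affymetrix Expression Console and Partek are named, without versions, in the submitters' processing notes, and the genome build is not given in the sources used here. Of 35556 probe sets, 21789 have 1 symbol, 1621 several and 12146 none; a gene took its probe set of highest mean over arrays. Normalization makes levels comparable within a gene only, and the number of arrays limits the precision.

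The fit (limma 3.58.1, R 4.3.3) held all 10 arrays, with time as a block, an early and a late treatment term and 3 residual degrees of freedom. Tests were two-sided, with Benjamini-Hochberg adjustment over 19938 genes at 0.05. The pairing comes from the labelled times; the labels give no replicate numbers. Late replicate 1 is the 72 h pair and late replicate 2 the 120 h pair. On simulated data for the late effect of 19938 genes, 93% of 100 genes changed by 1 and 99% of 100 changed by 2 (log2) were called, with 4% of calls false. For late minus early those shares were 73% and 99%, with 5.49% false. Whether these shares hold for genes whose difference is not the same at 72 and 120 h was not tested.

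The genes and the 42 gene lists were chosen with earlier results of these data known. Named were the 15 largest rises and falls, the members of each list past the threshold (otherwise up to 4 with the largest effect), the 6 widest gaps between the late times in each direction and 35 genes set by name; others are said to have been chosen after their values were seen.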

Additional observations from a re-analysis of the deposited data

How the results depend on the processing

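Each late value rests on 4 arrays, and no setting reversed the direction of a named gene that passed. Counts are given as higher and lower, against 172 and 16 for the late effect, 356 and 95 for the early effect and 0 and 0 for late minus early. Leaving out each pair in turn gave late counts from 16 to 240 higher and from 1 to 25 lower, early counts from 182 to 358 higher and from 12 to 194 lower, and late minus early counts from 0 to 5 higher and 0 lower. Of 107 named calls, 65 were lost without the 72 h pair, 91 without the 120 h pair and at most 18 without an early pair. With no replicate block, so without the pairing by time, late counts were 50 and 3, early counts 195 and 26 and late minus early counts 0 and 0. The 4 late arrays alone gave 480 and 184, which include all 172 and 16. A renewed quantile normalization gave 155 and 27 late and 332 and 161 early, and centred arrays gave 181 and 16 late and 313 and 173 early. Adjusting over all probe sets gave 6 and 0 late and 100 and 7 early. The ordinary test without moderation, which has 3 degrees of freedom per gene, gave 0 and 0 for all 3 effects (774 and 758 late at an unadjusted p under 0.05). The filter on dim genes, the mean of probe sets and the variance trend kept every count within 1.5 times. The cause of these shifts was not tested. The median late effect of all genes stayed between -0.03 and -0.01 under all settings.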

Other observations

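Lists outside the comparisons above had no member past limma's adjusted threshold for erythroid, platelet, granulocyte (mast cell, basophil and eosinophil), progenitor, endothelial, stromal, osteoblast and fat cell genes. With 9 to 19 genes each, they are too short to tell none from the background of 0.863% higher and 0.0802% lower. At an unadjusted p under 0.05 in limma, 3 of 14 fat cell genes were lower and none higher (3.57% and 4.28% of all genes were). The lists of B cell genes (15) and LXR targets (11) each had 1 gene that rose (background 0.863%). Oxidative phosphorylation subunits were lower in part. Of 18, 10 were lower and 0 higher at both late times (37.2% and 27.7% of all genes were). Their median was -0.22 at 72 h and -0.02 at 120 h, and none passed at an unadjusted p under 0.05. Cell cycle genes had medians of -0.06 at 72 h and 0.32 at 120 h. At an unadjusted p under 0.05, 1 of 19 was higher (4.28% of all genes were). Pfkfb3, an activator of glycolysis, was at 9.54 in the control and 10.26 with adiponectin at 72 h and at 9.74 and 10.24 at 120 h, and Vegfa, a growth factor for blood vessels, at 10.24 and 10.81 and at 10.07 and 10.57. Neither passed (adjusted p = 0.0757 and 0.0748 in limma).

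Il11, a cytokine of stromal cells that supports osteoclast formation, was at 9.20 in the control and 10.29 with adiponectin at 72 h and at 7.79 and 8.30 at 120 h. Wnt5a, a signal that raises RANK on osteoclast precursors, was at 8.75 and 9.81 at 72 h and at 8.32 and 8.66 at 120 h. Both were named for a difference that was wider at 72 h than at 120 h, and neither passed the late test (adjusted p = 0.0828 and 0.126). Of the probe sets with several symbols (1621) or none (12146), 0 passed when fitted together with all others.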
